A study of Homo sapiens with 4 samples.

Results

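The genes described here are 45 genes of the endoplasmic reticulum (ER) stress and ATF4 response, measured after knockdown of the long noncoding RNA EPEL in A549 cells. They form a list of named pathway genes that was made with earlier results of these data known. A gene was taken as measured when any array detected any of its probes with p under 0.01, which left 41 of the 45 genes, among 10921 genes measured in all. This detection p compares a probe with the negative control beads of its array. Of the 4 genes left out, HERPUD1 had no named probe, and ERN1, CHAC1 and PDIA3 had probes that were not detected on any array. PPP1R15B was just inside the threshold, with detection p-values of 0.0208, 0.0104 and 0.00909 with siRNAs 1, 2 and 3 and 0.0234 on the control array. Nearest outside it was CHAC1, at 0.438, 0.542 and 0.516 with siRNAs 1, 2 and 3 and 0.319 on the control array. The other 40 measured genes were detected on all 4 arrays.

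A549 is an established human line of lung cancer cells with epithelial traits. The study transfected it with 50 nM of 1 of 3 siRNAs against EPEL (siEPEL, 1 array for each siRNA, labelled replicates 1 to 3) or of a non-targeting siRNA (control, 1 array), using a lipid reagent, and the labels give a time of 48 h after transfection. Total RNA was hybridised to Illumina HumanHT-12 BeadChips, whose probes are read as the mean brightness of their beads. All arrays therefore share the cell line, the siRNA dose and the time, the siEPEL group is made of 3 different siRNAs, and the control group is a single array.

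The unfolded protein response is the reaction of a cell to proteins that fail to fold in the ER. Its sensors are the kinase PERK (EIF2AK3), the kinase and RNase IRE1 (ERN1) and ATF6, a transcription factor held in the ER membrane. PERK phosphorylates eIF2alpha, which lowers translation in general but raises that of ATF4, and ATF4 turns on genes of amino acid synthesis and uptake and of the PERK-ATF4 arm such as DDIT3 and TRIB3. Other kinases, among them the amino acid sensor GCN2, reach ATF4 by the same route, so ATF4 targets can respond without the chaperones. IRE1 splices the XBP1 mRNA, and spliced XBP1 and cleaved ATF6 turn on ER chaperones and the genes of ER-associated degradation. Much of this signalling runs through translation, splicing and cleavage, which probe intensities do not measure.

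Raw medians per array were 67.1, 65.9 and 65.9 intensity units with siRNAs 1, 2 and 3 and 68.3 on the control array, and between 16520 and 17106 of 47228 probes were detected on an array. No probe carries the name of EPEL, so the knockdown was not analysed here. Of the epithelial and A549 markers, 6 of 7 were measured, and the A549 marker AKR1C1 was not detected on any array. PTPRC, CD3E, PECAM1, VWF, CDH5, COL1A2, DCN and PDGFRB, markers of leukocytes, endothelium and fibroblasts, were not detected on any array, while the leukocyte marker CD14 was detected on all 4 and COL1A1 on 2 of the siEPEL arrays.

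The DNA elements through which this response acts are shown first. The results below are grouped by the role of the genes, not by these elements, and only some genes of a group carried one. Promoter windows of 300 bases, from 250 before to 50 after a transcription start, came from RefSeq (GRCh38.p14) and were available for 41 of the 45 genes, in 60 windows. NUPR1, PSPH, SHMT2 and PDIA3 had no window. The ER stress response element, searched on both strands as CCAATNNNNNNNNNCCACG, is bound by ATF6 together with NF-Y. It stood in the windows of 7 of these genes, namely XBP1, HSPA5, HSP90B1, CALR, CANX, PDIA6 and CRELD2, against 25 of all 27305 genes with a window (0.0916%). The whole window of HSPA5, which encodes the chief ER chaperone BiP, shows the element in capitals.
HSPA5 at chr9:125241294-125241593, minus strand: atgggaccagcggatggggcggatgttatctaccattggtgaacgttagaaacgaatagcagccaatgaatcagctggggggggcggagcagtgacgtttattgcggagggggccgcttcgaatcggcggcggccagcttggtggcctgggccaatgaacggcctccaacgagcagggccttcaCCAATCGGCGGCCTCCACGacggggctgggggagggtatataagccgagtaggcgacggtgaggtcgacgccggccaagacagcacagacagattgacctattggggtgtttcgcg
The matches in the other genes follow, each with the flanking bases and with the fixed letters of the element in capitals; coordinates are those of the element.
CALR at chr19:12938384-12938402, read on the minus strand: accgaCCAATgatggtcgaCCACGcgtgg
CANX at chr5:179698778-179698796, read on the plus strand: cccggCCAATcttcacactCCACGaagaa
CRELD2 at chr22:49918554-49918572, read on the minus strand: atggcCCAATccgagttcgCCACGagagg
HSP90B1 at chr12:103930216-103930234, read on the plus strand: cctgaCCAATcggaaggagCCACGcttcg
HSP90B1 at chr12:103930321-103930339, read on the minus strand: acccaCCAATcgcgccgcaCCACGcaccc
PDIA6 at chr2:10812853-10812871, read on the minus strand: ccggaCCAATgagccgcagCCACGgcttg
XBP1 at chr22:28800603-28800621, read on the minus strand: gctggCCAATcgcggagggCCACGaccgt
A related element, ER stress response element II, searched as ATTGGNCCACG on both strands, stood in the windows of HYOU1, SDF2L1 and HERPUD1, against 19 of all genes with a window (0.0696%). Those of the measured genes are shown with the fixed letters in capitals.
HYOU1 at chr11:119057274-119057284, read on the plus strand: tactcATTGGaCCACGtccca
HYOU1 at chr11:119057380-119057390, read on the plus strand: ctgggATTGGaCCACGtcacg
SDF2L1 at chr22:21642114-21642124, read on the minus strand: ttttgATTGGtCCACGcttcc
In HYOU1 one of these matches overlapped the only match among these genes to the unfolded protein response element, searched as TGACGTGN, which 653 of all genes with a window held (2.39%).

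The element bound by ATF4 with a C/EBP partner, searched on both strands as TGATGNAA, stood in the windows of CHAC1, CEBPG, PPP1R15B, ASNS, SLC3A2, SLC1A5 and HERPUD1, which is 7 genes against 1217 of all genes with a window (4.46%). The whole window of ASNS, asparagine synthetase, shows it in capitals.
ASNS at chr7:97872359-97872658, minus strand: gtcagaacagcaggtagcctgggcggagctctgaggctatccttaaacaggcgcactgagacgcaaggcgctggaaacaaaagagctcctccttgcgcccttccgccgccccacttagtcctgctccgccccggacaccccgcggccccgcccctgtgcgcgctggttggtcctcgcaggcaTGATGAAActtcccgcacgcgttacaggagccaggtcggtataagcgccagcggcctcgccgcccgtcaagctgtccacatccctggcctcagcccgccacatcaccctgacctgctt
The matches in the other measured genes have the fixed letters in capitals.
CEBPG at chr19:33374071-33374078, read on the plus strand: gcgtcTGATGcAAcctgc
PPP1R15B at chr1:204412037-204412044, read on the minus strand: ccggcTGATGcAAcctca
SLC1A5 at chr19:46784904-46784911, read on the minus strand: gtggcTGATGcAAgctgt
SLC3A2 at chr11:62881736-62881743, read on the minus strand: ggagcTGATGtAAggagt
HERPUD1 was the one gene of the list with both kinds of element. A match is a run of letters in these windows, and 13 genes with several annotated starts had more than 1 window.

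Levels below are log2 intensities after background correction and normalization between arrays, and a log2 fold change is the siEPEL mean minus control. With all 3 siEPEL arrays set against the control array, 0 of 18200 probes passed an adjusted p of 0.05 in the limma fit (0.0%), and 0 of the 41 genes did. At an unadjusted p under 0.05 the fit held 2 of the 41, ATF5 and NUPR1, against 1.71% of all genes. The median log2 fold change of the 41 genes was -0.03, beside -0.01 over all genes measured. By group it was -0.01 for the sensors, -0.03 for the PERK-ATF4 arm, 0.01 for the amino acid genes, -0.02 for the ER chaperones and -0.03 for ER-associated degradation. The median standard error of a probe's log2 fold change was 0.22, and since no label names separate cultures, p-values measure the spread between these samples. With a single control array, that spread comes from the 3 siEPEL arrays alone, which carry different siRNAs. The limma fit moderates it by the spread over all tested probes. Standard errors assume that the control array varies as the siEPEL arrays do, and the 3 siRNAs share that 1 array.

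**Figure D1:**
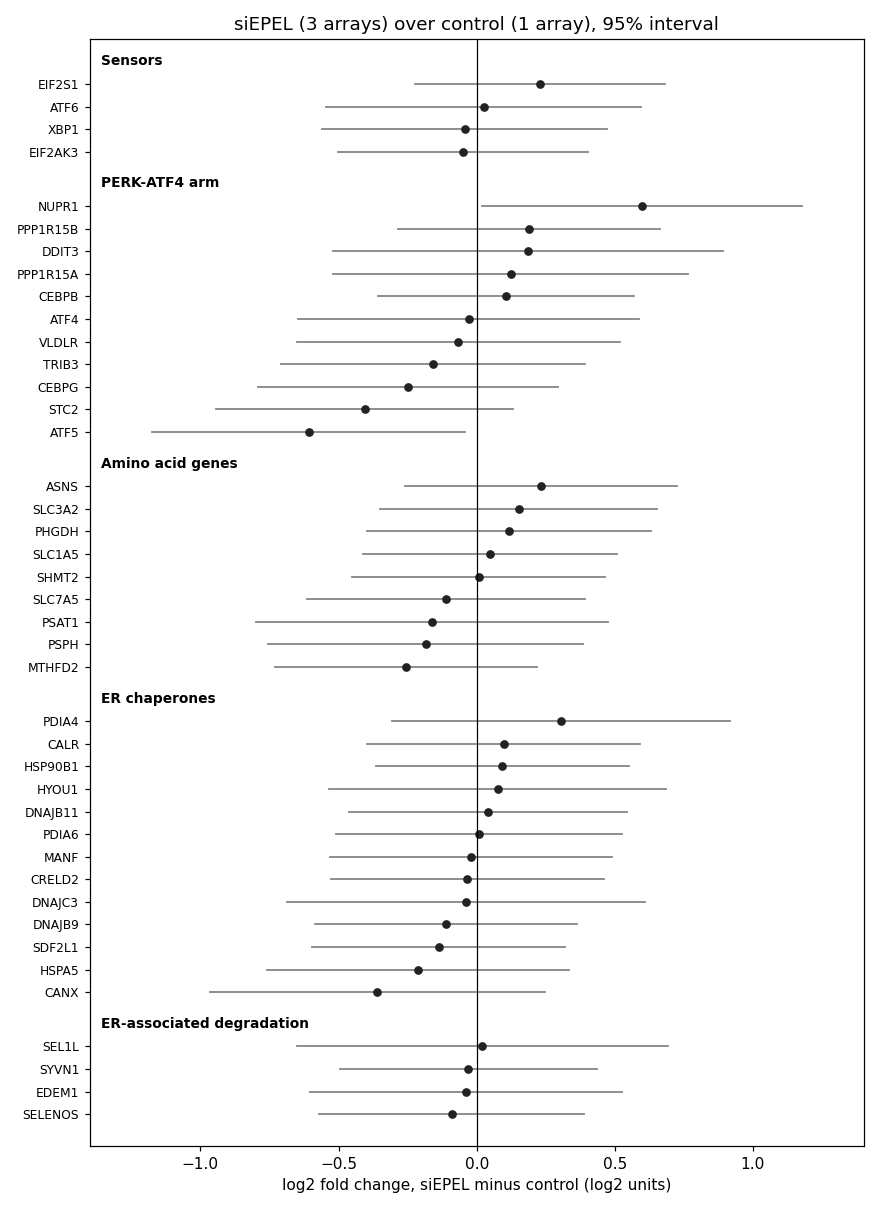
Log2 fold change of each measured gene, siEPEL (mean of 3 arrays) minus control (1 array), on the horizontal axis in log2 units, with genes listed by group. Points are the limma estimates and bars their 95% confidence intervals, which leave 0 outside for NUPR1, at 0.60, and ATF5, at -0.61, before any adjustment.

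Taken singly, siRNA 1 gave 3 of the 41 genes at least 1.5-fold from control, NUPR1 and DDIT3 higher and ATF5 lower, where 5.12% of all genes passed that fold. With siRNA 2 it was 1 gene, CANX, which was lower, against 5.74% of all genes, and with siRNA 3 it was 0 genes, against 2.17%. Above control with all 3 siRNAs lay 6 of the 41 genes (20.5% of all genes did), namely NUPR1, ASNS, EIF2S1, CEBPB, HSP90B1 and PPP1R15B, the last of which was detected on an siEPEL array only, so that the filter bears on its place. Another 6 lay below it with all 3 (20.3% of all genes), namely ATF5, STC2, MTHFD2, CEBPG, SDF2L1 and EIF2AK3. Without PPP1R15B, 11 genes in place of 12 lay on the same side with all 3 siRNAs. The 2 sets mix roles: each holds genes of the PERK-ATF4 arm, of amino acid metabolism, of the chaperones and of the sensors.

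**Figure D2:**
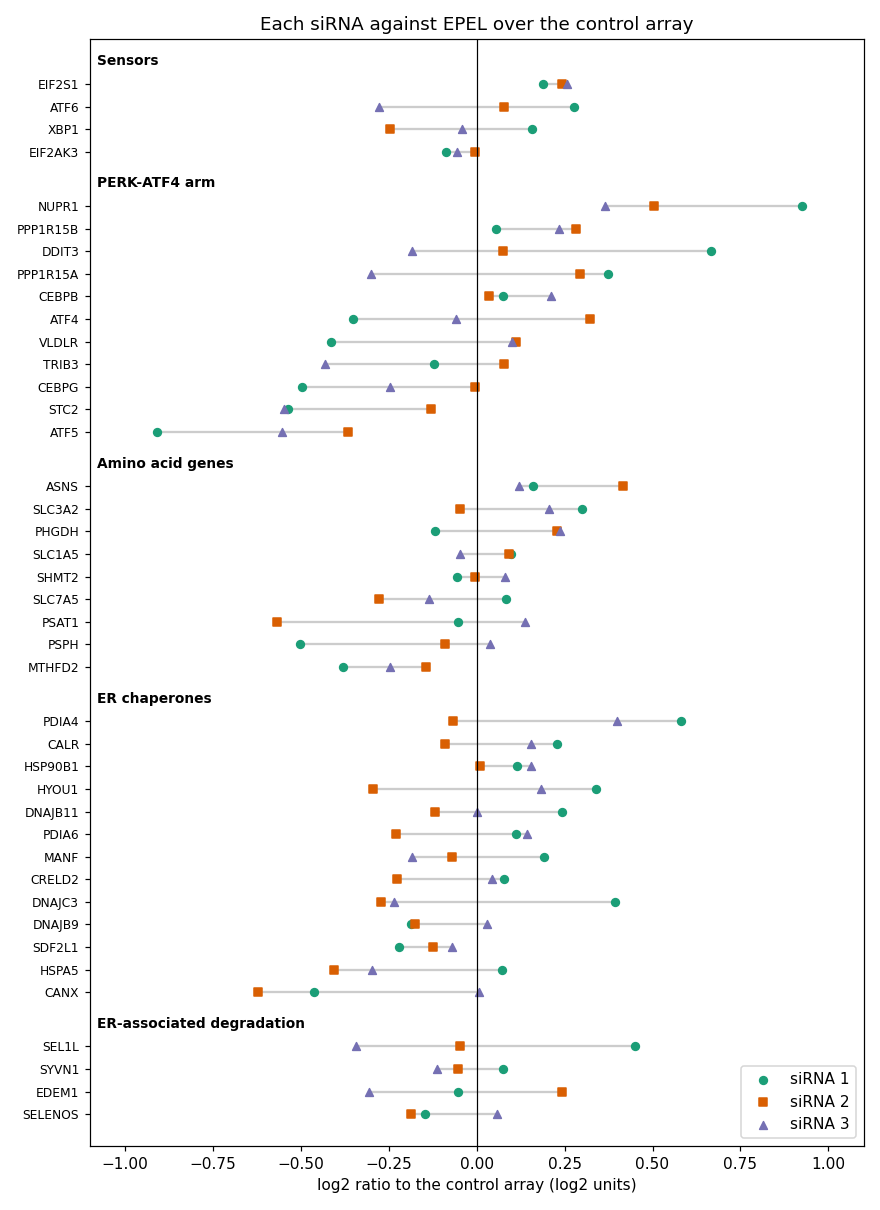
Log2 ratio of each siEPEL array to the control array (horizontal axis, log2 units) for the 41 measured genes, listed by group and ordered by log2 fold change, with 1 marker per siRNA. Within the PERK-ATF4 arm NUPR1 lies furthest right and ATF5 furthest left, and among the chaperones 12 of 13 siRNA 2 markers lie left of 0.

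The sensors and their substrates had log2 fold changes of -0.05 to 0.23, none past the test. EIF2AK3, which encodes PERK, had log2 levels of 6.967, 7.048 and 6.996 with siRNAs 1, 2 and 3, against 7.053 on the control array (log2 fold change -0.05 ± 0.20, SE). ATF6 had 9.45, 9.25 and 8.90 with siRNAs 1, 2 and 3, against 9.18 on the control array (0.03 ± 0.25, SE), so the control lay within the range of the siEPEL arrays. XBP1 had 11.71, 11.31 and 11.51 with siRNAs 1, 2 and 3, against 11.55 on the control array (-0.04 ± 0.23, SE). The probes of XBP1 do not tell the spliced from the unspliced mRNA here, and its second probe had the other sign, 0.14 ± 0.21. EIF2S1, which encodes eIF2alpha, the protein that PERK phosphorylates, had 9.12, 9.17 and 9.19 with siRNAs 1, 2 and 3, against 8.93 on the control array. All 3 siEPEL values of EIF2S1 were above control and close to each other, with a log2 fold change of 0.23 ± 0.20 (SE, 95% interval -0.22 to 0.68).

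The PERK-ATF4 arm held the genes furthest from control in both directions. Its log2 fold changes ran between -0.61 and 0.60, while its median was -0.03. The siRNAs also spread more here, with a median SD among the siEPEL arrays of 0.28, beside 0.20 over the 41 genes and 0.17 over all genes. The further ATF4 targets described below had nearly the same spread, with a median SD of 0.26. ATF4, the transcription factor that gives the arm its name, had log2 levels of 12.43, 13.10 and 12.72 with siRNAs 1, 2 and 3, against 12.78 on the control array. Thus siRNA 1 gave the lowest and siRNA 2 the highest of the 4 arrays, and the log2 fold change was -0.03 ± 0.27 (SE, 95% interval -0.65 to 0.59). A second probe of ATF4 gave 9.13, 9.49 and 9.01 with siRNAs 1, 2 and 3, against 9.14 on the control array, and a fold change of the other sign, 0.07 ± 0.24. Both probes were highest with siRNA 2, while the third probe of ATF4 gave -0.15 ± 0.32.

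ATF5, a transcription factor of the ATF4 family that is itself an ATF4 target, lay below control with each siRNA. Its log2 levels were 8.37, 8.91 and 8.73 with siRNAs 1, 2 and 3, against 9.28 on the control array, which is 0.533, 0.776 and 0.682 times the control. The siEPEL arrays did not overlap the control, and the log2 fold change was -0.61 ± 0.25 (SE, 95% interval -1.17 to -0.04; limma unadjusted p 0.0377, adjusted p 1.00). NUPR1, a small stress-induced chromatin protein that ATF4 induces, lay on the other side, at 7.67, 7.25 and 7.11 with siRNAs 1, 2 and 3, against 6.75 on the control array. That is 1.90, 1.42 and 1.29 times the control, with a log2 fold change of 0.60 ± 0.25 (SE, 95% interval 0.02 to 1.18; limma unadjusted p 0.0440, adjusted p 1.00). The second NUPR1 probe was dimmer and gave 6.91, 6.03 and 5.67 with siRNAs 1, 2 and 3, against 5.68 on the control array (0.53 ± 0.40, SE). It lay above control with siRNAs 1 and 2 and level with it with siRNA 3.

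STC2, a secreted glycoprotein induced by the arm, had log2 levels of 8.41, 8.81 and 8.40 with siRNAs 1, 2 and 3, against 8.95 on the control array (-0.41 ± 0.24, SE, 95% interval -0.94 to 0.13). CEBPG, a partner of ATF4 in binding the element shown above, had 9.89, 10.38 and 10.14 with siRNAs 1, 2 and 3, against 10.38 on the control array (-0.25 ± 0.24, SE). In both genes siRNA 2 was the siEPEL array nearest to control. DDIT3, which encodes the death-promoting factor CHOP, had 7.50, 6.91 and 6.65 with siRNAs 1, 2 and 3, against 6.84 on the control array. Its ratio to control was 1.59 with siRNA 1, 1.05 with siRNA 2 and 0.880 with siRNA 3, so 1.5-fold was passed with siRNA 1 alone (log2 fold change 0.19 ± 0.31, SE, and -0.055 without siRNA 1).

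TRIB3, a pseudokinase that restrains ATF4 and CHOP, had log2 levels of 10.29, 10.49 and 9.98 with siRNAs 1, 2 and 3, against 10.41 on the control array (-0.16 ± 0.24, SE). PPP1R15A, the GADD34 subunit that brings a phosphatase back to eIF2alpha, had 10.23, 10.15 and 9.56 with siRNAs 1, 2 and 3, against 9.86 on the control array (0.12 ± 0.28, SE). For both genes siRNA 3 was the lowest of the 4 arrays. CEBPB, another dimer partner of ATF4, had 12.48, 12.45 and 12.62 with siRNAs 1, 2 and 3, against 12.41 on the control array (0.11 ± 0.20, SE). VLDLR, a lipoprotein receptor, had 6.80, 7.33 and 7.31 with siRNAs 1, 2 and 3, against 7.21 on the control array (-0.07 ± 0.26, SE). PPP1R15B, the constitutive counterpart of PPP1R15A, was at the detection limit, at 5.34, 5.57 and 5.52 with siRNAs 1, 2 and 3 and 5.29 on the control array, so it is given no fold. The ATF4 targets thus did not share a direction. ATF5 and STC2 lay below control with all 3 siRNAs, as did CEBPG, though at 0.997 times control with siRNA 2. NUPR1 lay above control with all 3 on its brightest probe, while its second probe was at 0.997 times control with siRNA 3.

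**Figure D3:**
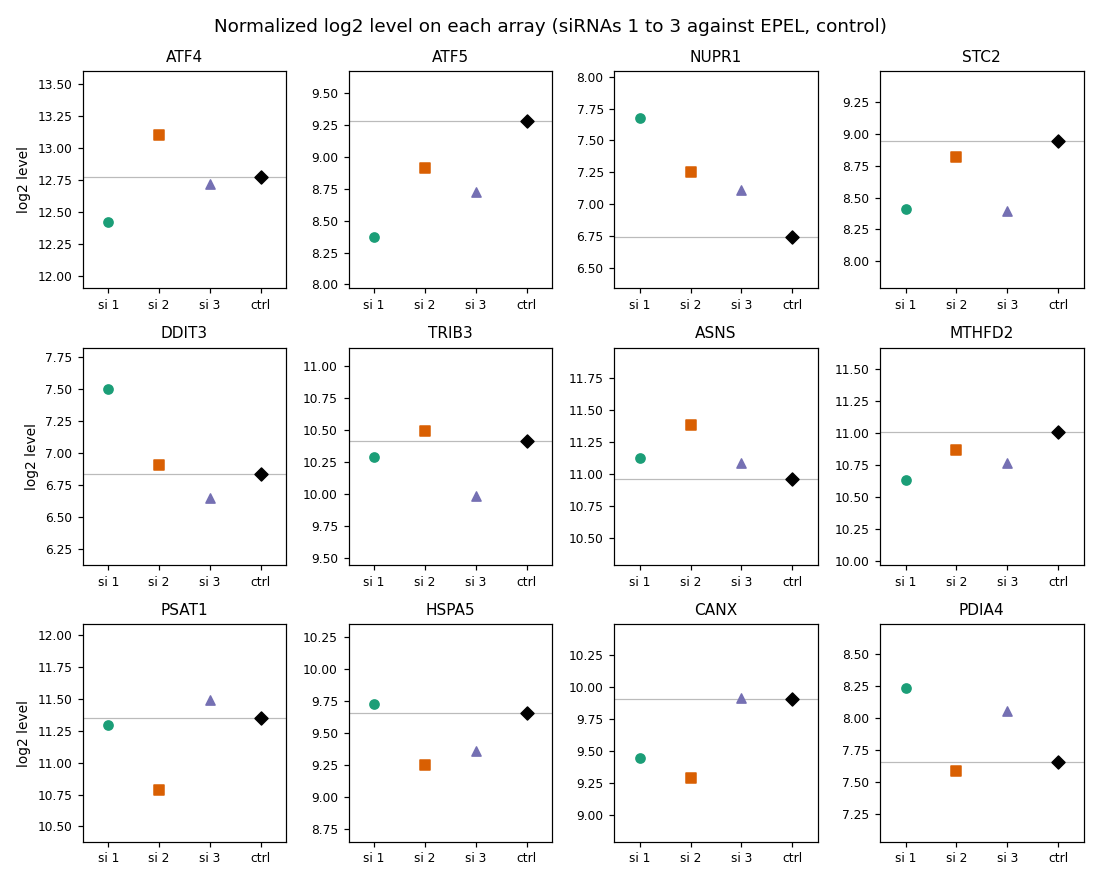
Normalized log2 level (vertical axis, each panel spanning the same range) of 12 genes on the siRNA 1, siRNA 2 and siRNA 3 arrays (si 1 to si 3) and on the control array (ctrl, also the grey line). ATF5, STC2 and MTHFD2 lie below control on every siEPEL array and NUPR1 and ASNS above it, while ATF4, DDIT3, TRIB3, PSAT1, HSPA5 and PDIA4 have siEPEL arrays on both sides, and CANX lies below control with siRNAs 1 and 2 and level with it with siRNA 3.

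The genes of amino acid synthesis and uptake, the metabolic output of ATF4, had a median log2 fold change of 0.01, with a range of -0.26 to 0.23 over 9 of 9 genes. Per siRNA the median was -0.05, -0.05 and 0.08 for siRNAs 1, 2 and 3, and 4, 3 and 6 of the 9 genes lay above control. Of all 10921 genes, 5484, 5485 and 5405 did so with siRNAs 1, 2 and 3. ASNS, which makes asparagine and carries the ATF4 element shown above, had log2 levels of 11.12, 11.38 and 11.08 with siRNAs 1, 2 and 3, against 10.96 on the control array (0.23 ± 0.22, SE, 95% interval -0.26 to 0.72). A second ASNS probe gave 9.31, 9.92 and 9.30 with siRNAs 1, 2 and 3, against 9.17 on the control array (0.34 ± 0.28, SE). On both probes all 3 siEPEL arrays were above control and siRNA 2 was the highest, as it was for ATF4. MTHFD2, the mitochondrial folate enzyme that takes up serine-derived carbon, lay on the other side, at 10.63, 10.87 and 10.76 with siRNAs 1, 2 and 3, against 11.01 on the control array (-0.26 ± 0.21, SE, 95% interval -0.73 to 0.22).

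The enzymes of serine synthesis differed in which siRNA gave the lowest level. PHGDH, its first enzyme, had log2 levels of 11.08, 11.42 and 11.43 with siRNAs 1, 2 and 3, against 11.19 on the control array (0.12 ± 0.23, SE). PSAT1, the next, had 11.30, 10.78 and 11.49 with siRNAs 1, 2 and 3, against 11.35 on the control array (-0.16 ± 0.28, SE). PSPH, the last, had 8.44, 8.85 and 8.97 with siRNAs 1, 2 and 3, against 8.94 on the control array (-0.18 ± 0.25, SE). PSAT1 was low with siRNA 2 and PSPH with siRNA 1. SHMT2, which converts serine to glycine in mitochondria, had a log2 fold change of 0.01 ± 0.20.

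SLC7A5 and SLC3A2 encode the chains of the LAT1 transporter for large neutral amino acids. SLC7A5 had log2 levels of 13.79, 13.43 and 13.57 with siRNAs 1, 2 and 3, against 13.70 on the control array (-0.11 ± 0.22, SE). SLC3A2 had 12.03, 11.68 and 11.93 with siRNAs 1, 2 and 3, against 11.73 on the control array (0.15 ± 0.22, SE). In both genes siRNA 1 was the highest and siRNA 2 the lowest of the 4 arrays. SLC1A5, a glutamine transporter, had a log2 fold change of 0.05 ± 0.20.

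Among the ER chaperones, 13 of 14 genes were measured, and their log2 fold changes ran between -0.36 and 0.30. HSPA5, the BiP chaperone that releases the sensors when unfolded protein builds up, had log2 levels of 9.73, 9.25 and 9.36 with siRNAs 1, 2 and 3, against 9.66 on the control array (-0.21 ± 0.24, SE, 95% interval -0.76 to 0.34). HSP90B1, the ER form of HSP90, had 13.21, 13.11 and 13.25 with siRNAs 1, 2 and 3, against 13.10 on the control array (0.09 ± 0.20, SE). The range of HSPA5 over the siEPEL arrays took in the control, and HSP90B1 lay above control on all 3. CALR, the soluble lectin chaperone, had 10.06, 9.74 and 9.98 with siRNAs 1, 2 and 3, against 9.83 on the control array (0.10 ± 0.22, SE). CANX, its membrane-bound counterpart, had 9.44, 9.29 and 9.91 with siRNAs 1, 2 and 3, against 9.91 on the control array.

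CANX thus stood at 0.725 and 0.650 times the control with siRNAs 1 and 2 and at 1.00 times with siRNA 3 (log2 fold change -0.36 ± 0.27, SE, 95% interval -0.97 to 0.25). Its second probe showed the same order of the siRNAs, with 9.34, 9.12 and 9.91 with siRNAs 1, 2 and 3, against 9.96 on the control array (-0.50 ± 0.30, SE). PDIA4, a disulfide isomerase, was the chaperone furthest above control, at 8.23, 7.59 and 8.05 with siRNAs 1, 2 and 3, against 7.65 on the control array (0.30 ± 0.27, SE, 95% interval -0.31 to 0.92). It was above control with siRNAs 1 and 3 and just below it with siRNA 2. DNAJB9, a BiP cofactor that is a target of spliced XBP1, had 8.14, 8.15 and 8.36 with siRNAs 1, 2 and 3, against 8.33 on the control array (-0.11 ± 0.21, SE). The remaining chaperones and cofactors, PDIA6, DNAJB11, DNAJC3, HYOU1, SDF2L1, MANF and CRELD2, had log2 fold changes between -0.14 (SDF2L1) and 0.08 (HYOU1).

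The genes of ER-associated degradation, which draws misfolded protein back to the cytosol for the proteasome, had a median log2 fold change of -0.03 and a range of -0.09 to 0.02 over 4 of 5 genes. SEL1L, the scaffold of the HRD1 ubiquitin ligase, had log2 levels of 6.55, 6.05 and 5.76 with siRNAs 1, 2 and 3, against 6.10 on the control array (0.02 ± 0.30, SE). SYVN1, the ligase HRD1 itself, had 9.49, 9.37 and 9.31 with siRNAs 1, 2 and 3, against 9.42 on the control array (-0.03 ± 0.20, SE). Ligase and scaffold shared the order of the siRNAs, with siRNA 1 the highest and siRNA 3 the lowest. EDEM1, a lectin that picks out misfolded glycoproteins, had 9.55, 9.84 and 9.30 with siRNAs 1, 2 and 3, against 9.60 on the control array (-0.04 ± 0.25, SE). SELENOS, a selenoprotein that ties the machinery to the p97 ATPase, had 11.23, 11.19 and 11.44 with siRNAs 1, 2 and 3, against 11.38 on the control array (-0.09 ± 0.21, SE). None of the 4 genes lay on the same side of control with all 3 siRNAs, where 20.5% of all genes lay above and 20.3% below it.

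Of 25 further ATF4 targets 21 were measured. In the limma fit 0 were called higher and 0 lower, as were 0.0% of all probes, and 0 had an unadjusted p under 0.05, beside 1.71% of all genes. Their median log2 fold change was 0.03, with 6 above control with all 3 siRNAs (20.5% of all genes) and 4 below (20.3% of all genes). The 6 include SLC43A1, which was detected on siEPEL arrays only, so that the filter bears on its place. The furthest was SLC7A11, the cystine importer, with log2 levels of 7.95, 7.49 and 7.11 with siRNAs 1, 2 and 3, against 7.06 on the control array (0.46 ± 0.31, SE). BBC3, the pro-apoptotic protein PUMA, had 7.10, 6.89 and 6.58 with siRNAs 1, 2 and 3, against 6.55 on the control array (0.31 ± 0.24, SE). Both followed the order seen in NUPR1 and DDIT3, with siRNA 1 the highest and siRNA 3 the lowest of the siEPEL arrays. SLC43A1, an amino acid transporter, was below detection in the control. It had log2 levels of 5.71, 5.69 and 5.66 with siRNAs 1, 2 and 3, against a measured 5.38 on the control array. Its siEPEL mean was 1.05 times the dimmest detected signal of the control array, a ratio that carries no error. The log2 fold change was 0.31 ± 0.20 (SE, confidence interval -0.14 to 0.76), so an increase was not established.

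A list of 48 further genes was mainly of ER folding, transport and degradation. It also held the kinases EIF2AK1, EIF2AK2 and EIF2AK4 and the factor NFE2L1, and is called the further ER genes. Of the 48, 44 were measured, with 0 called in each direction (0.0% of all probes) and 0 at an unadjusted p under 0.05 (1.71% of all genes). Their median log2 fold change was -0.01, with 5 above control with all 3 siRNAs (20.5% of all genes) and 7 below (20.3% of all genes). ERO1B, an oxidase that recharges the disulfide isomerases, had log2 levels of 6.08, 6.15 and 6.27 with siRNAs 1, 2 and 3, against 6.63 on the control array (-0.46 ± 0.20, SE; limma unadjusted p 0.0508), and its second probe gave -0.25 ± 0.24. OS9, a lectin of the degradation machinery, had a log2 fold change of 0.31 ± 0.22, and CREB3L2, an ATF6-like factor, of -0.28 ± 0.22.

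The chaperones and the PERK-ATF4 arm were ordered differently across the siRNAs. This pattern was chosen after the values were seen, each siRNA is 1 array, and it has no test. The chaperones were higher with siRNA 1 than with siRNA 2 in 11 of 13 genes, SDF2L1 and DNAJB9 being the others, where 49.0% of all genes were higher with siRNA 1. The median difference was 0.32 on the log2 scale, beside -0.01 over all genes measured. Of the PERK-ATF4 arm 4 of 11 genes were higher with siRNA 1, namely NUPR1, DDIT3, PPP1R15A and CEBPB, and the median difference was -0.23. That median is the value of PPP1R15B, which was detected on 1 array only. Over the genes of the arm detected on all 4 arrays the median difference was -0.30. The amino acid genes, with 4 of 9 higher with siRNA 1, had a median difference of -0.05, the sensors of 0.07 and ER-associated degradation of 0.08.

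DNAJC3, which restrains PERK and assists BiP, showed the widest gap among the chaperones, with log2 levels of 6.25 with siRNA 1 and 5.58 with siRNA 2, a difference of 0.66. PDIA4 differed by 0.65, HYOU1, the exchange factor of BiP, by 0.63 (7.47 with siRNA 1 and 6.84 with siRNA 2), and HSPA5 by 0.48. A second HYOU1 probe differed by 0.37, short of 1.5-fold, and had a siEPEL log2 fold change of 0.25 ± 0.23 (SE), beside 0.08 ± 0.27 for the first. ATF4 differed the other way, by -0.67, on its brightest probe, while its second probe gave -0.36 and its dimmest 0.23, so the probes did not share a direction. Counted at 1.5-fold, 5 of the 41 genes, each by its brightest probe, differed between siRNA 1 and siRNA 2, against 9.15% of all genes, with PDIA4, HYOU1, DNAJC3 and DDIT3 higher with siRNA 1 and ATF4 higher with siRNA 2.

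The siRNA 2 array was the low one among the chaperones. With siRNA 2, 12 of 13 chaperones lay below control, at a median of -0.18, where 49.7% of all genes did so. It was the lowest of the 4 arrays for 9 of the 13, against 27.5% of all genes, and for 0 of the 11 genes of the PERK-ATF4 arm. The siRNA 1 array was the highest of the 4 for 8 of the 13 chaperones, against 28.5% of all genes. Set against siRNA 3, siRNA 2 was lower in 12 of 13 chaperones (49.0% of all genes), at a median difference of -0.20. It was higher in 10 of 11 genes of the PERK-ATF4 arm (50.9% of all genes), PPP1R15B among them, at a median difference of 0.24. The related lists did not share this split. The further ATF4 targets were higher with siRNA 2 in 14 of 21 genes (median 0.03) and the amino acid genes in 3 of 9 (median -0.08). The further ER genes were lower with siRNA 2 in 22 of 44 (median -0.01). Chaperones with siRNA 1 lay above control in 10 of 13 genes, at a median of 0.11, and with siRNA 3 in 8 of 13, at a median of 0.03. Of all 10921 genes, 5484 lay above control with siRNA 1 and 5405 with siRNA 3.

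By promoter, the 6 chaperones with the ER stress response element in their window had a median difference, siRNA 1 minus siRNA 2, of 0.31 and a range of 0.10 to 0.48, and the 7 without it 0.36 and a range of -0.10 to 0.66. The 7 include HYOU1 and SDF2L1, which carry ER stress response element II, and the part of either element was not tested. Some genes outside the response were ordered like the chaperones. All 6 measured epithelial and A549 markers were higher with siRNA 1 than with siRNA 2, with a median of 0.34 that lies between the keratins and the rest. KRT8 was higher by 0.52, KRT18 by 0.50 and KRT19 by 0.54, against 0.18 for EPCAM, 0.14 for NQO1 and 0.05 for AKR1B10, and a second probe of NQO1 went the other way, at -0.39. All 6 epithelial and A549 markers were also below control with siRNA 2, at a median of -0.17. The measured markers of other cell types, CD14 and COL1A1, were lower with siRNA 1 than with siRNA 2, at -0.34 and -0.42. Over all genes, 49.0% were higher with siRNA 1. The further ER genes were higher with siRNA 1 in 29 of 44 cases, with a median of 0.14, and the further ATF4 targets in 13 of 21, with a median of 0.02. The 29 include EIF2AK1, EIF2AK2, EIF2AK4 and NFE2L1. Whether the markers, or any property of a single array, have a part in the order of the chaperones was not tested.

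**Figure D4:**
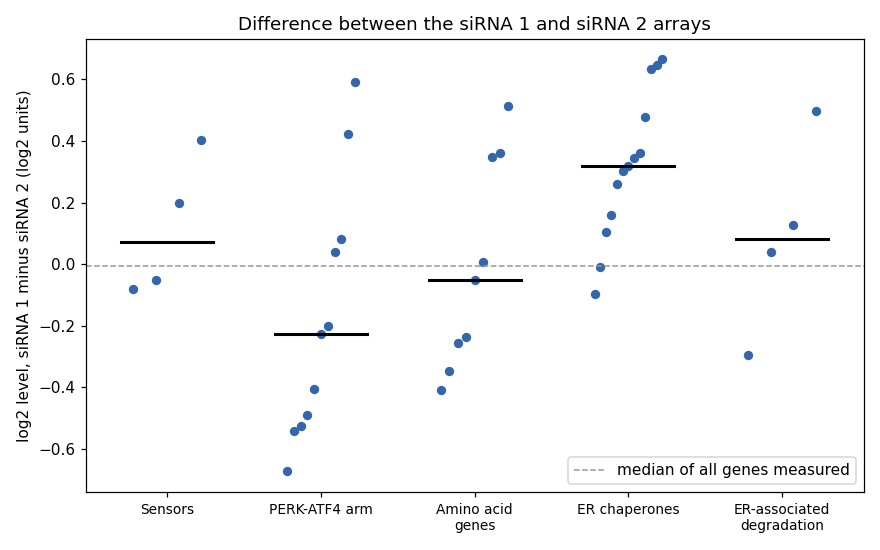
Difference in log2 level between the siRNA 1 array and the siRNA 2 array (vertical axis, log2 units) for the measured genes of each group, 1 point per gene, with the group's median as a bar and the median of all genes as a dashed line. The chaperones have a median of 0.32 and the PERK-ATF4 arm of -0.23, and the points of the groups overlap. The median of the arm falls on PPP1R15B, which was detected on 1 array only.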

How the data were processed

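RNA from 4 samples of A549 cells, 3 siEPEL and 1 control, was measured on Illumina HumanHT-12 arrays, 1 array per sample, and groups came from the labels. The authors deposited 1 intensity per probe and array, the mean over its beads; the submitters' processing notes name BeadStudio. From their values these intensities are linear and neither background-subtracted nor normalized. A detection p-value stands beside each intensity, per the file headers. A second table of background-subtracted intensities that the authors deposited served as an alternative; its normalization is not stated.

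The raw intensities were normalized here in R 4.3.3 by the steps of neqc in limma 3.58.1, which takes the normexp background from the detection p-values, adds an offset of 16, sets the arrays to the same quantiles and takes log2. The offset understates folds of dim probes. The 18200 probes that any array detected with p under 0.01 were tested, and a gene was taken by its brightest tested probe. Of 47228 probes, 30113 had 1 gene in the platform annotation, 8 several and 17107 none here; updating symbols through RefSeq changed 0. The contrast of siEPEL over control used lmFit and eBayes, 2-sided, with Benjamini-Hochberg adjustment over all tested probes at 0.05, and the fit was tested on simulated data. Single siRNAs were described at 1.5-fold with no test. Where the control was below detection, the siEPEL mean was set against the dimmest detected control signal, and this ratio carries no error.

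The 45 genes, their 5 groups and the further lists were chosen with earlier results of these data known. Levels are given for the regulators and index genes ATF4, DDIT3, TRIB3, ATF6, XBP1, EIF2AK3, ASNS, PHGDH, PSAT1, SLC7A5, SLC3A2, HSPA5, HSP90B1, CALR, DNAJB9 and SEL1L, for the 3 genes of each group furthest from control, and for others named after their values were seen. Alternatives were other background, scaling, offset, filter, probe and fold settings and leaving out each siEPEL array. The number of arrays limits the precision.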

Additional observations from a re-analysis of the deposited data

How the results depend on the processing

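The count of genes called was 0, of the 41 and of all probes, under every alternative run, and the group medians moved by less than the spread between the siRNAs. At an unadjusted p under 0.05 the 41 genes gave 2, against 0 with the authors' processed values, 0 with no detection filter and 1 with the mean of a gene's probes, and between 0 (without siRNA 1) and 3 with an siEPEL array left out. A threshold midway between no change and 1.5-fold raised the genes past it to 15, 7 and 6 with siRNAs 1, 2 and 3. The share of all genes past that lower threshold was not computed, so these counts have no background beside them. At 1.5-fold, the siRNA 2 count of 1 became 2 with median scaling, with cyclic loess and with the mean of a gene's probes. Of 33 named genes, 8 changed sign under some alternative, 11 times in 395 values, each with a log2 fold change that had not passed the test. XBP1 was 0.051 with the mean of a gene's probes, and SEL1L was -0.00011 with cyclic loess. With 1 siEPEL array left out, log2 fold changes ran from -0.21 to 0.13 for ATF4, -0.055 to 0.37 for DDIT3, -0.10 to 0.18 for ATF6, -0.14 to 0.058 for XBP1, -0.31 to 0.041 for PSAT1, -0.20 to 0.20 for SEL1L, -0.18 to 0.095 for EDEM1 and -0.083 to 0.010 for SYVN1; the cause was not tested. ATF5 stayed between -0.73 and -0.46 and NUPR1 between 0.43 and 0.72. The difference between siRNA 1 and siRNA 2 in the chaperones stayed between 0.31 and 0.34 under other processing, an alternative chosen after seeing the data. In the PERK-ATF4 arm the same difference, also chosen after seeing the data, moved more. It ran from -0.36 with the authors' processed values to -0.19 with no background correction. No paired analysis was possible because the control group has a single array. With 1 control array its own error is not measured, and dim genes such as PPP1R15B, DNAJC3 and SEL1L lie near the background.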
